A study of Homo sapiens with 4 samples.

Results

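The genes described here are 50 heat shock proteins, chaperonin subunits and co-chaperones, taken by symbol from a gene expression table of PC9 cells that lists 18134 genes. They were taken by name, but the choice was made with earlier results of these data known. All 50 were listed there, and all 50 were among the 14048 genes expressed well enough to be tested. PC9 is a human lung adenocarcinoma cell line. The cells of both groups had been infected with lentivirus and kept under antibiotic selection as stable lines, so the control cells carried a vector too. The shNC group expressed a control short hairpin RNA and the shTPX2 group expressed a hairpin against TPX2, a spindle assembly factor that activates the kinase Aurora A. Each group had 2 libraries of poly(A)-selected RNA, 4 in all, and the labels put them in 1 batch. Nothing in the labels says that the 2 libraries of a group came from separate cultures or separate infections, so the p-values measure the spread between these libraries, which may be technical. The comparison asks how the transcriptome differed when TPX2 was depleted.

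Chaperones bind polypeptides that are not yet folded or have come unfolded and keep them from aggregating. HSP70 proteins bind and release short hydrophobic stretches in a cycle driven by ATP. HSP40 (DNAJ) proteins bring substrates to HSP70 and start ATP hydrolysis, and BAG and HSP110 proteins bring about the exchange of nucleotide that lets the substrate go. HSP90 acts later, on kinases, steroid receptors and other nearly folded clients, with co-chaperones that set the pace of its own cycle. The CCT chaperonin is a closed double ring that folds actin and tubulin, which prefoldin hands to it. The transcription factor HSF1 induces many of these genes under proteotoxic stress by binding heat shock elements, which are inverted repeats of the unit nGAAn.

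The promoters of several of these genes hold heat shock element letters, which are shown here as a feature that several members share. The members were chosen as heat shock proteins and their partners, many induced by HSF1. The shares below are therefore not independent of that choice. The windows ran from 250 bases before to 50 bases after each RefSeq transcription start (GRCh38.p14), and 44 of the 50 members had at least 1 window, 16 of them more than 1. A strict element of 3 alternating units, GAANNTTCNNGAA or TTCNNGAANNTTC on either strand, was found in 8 of the 44 members, or 18.2%, against 166 of 27305 genes with a window, or 0.608%. The shorter element of 2 units, GAANNTTC or TTCNNGAA, which is contained in every strict element, was found in 21 of the 44 members, or 47.7%, against 16.2% of all genes. Each of the following lines runs 5′ to 3′ on the coding strand of its gene, with the element in capitals.
HSPA8 distal: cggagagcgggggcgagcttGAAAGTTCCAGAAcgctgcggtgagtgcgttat
HSPA8 proximal: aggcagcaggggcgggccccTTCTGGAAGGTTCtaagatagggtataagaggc
HSP90AB1 distal: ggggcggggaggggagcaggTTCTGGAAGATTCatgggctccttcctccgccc
HSP90AB1 proximal: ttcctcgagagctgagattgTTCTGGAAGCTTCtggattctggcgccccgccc
DNAJA1: cgggcgGAACTTTCCAGAAcgctcg
HSP90AA1: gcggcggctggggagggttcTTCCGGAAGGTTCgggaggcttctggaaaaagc
HSPD1: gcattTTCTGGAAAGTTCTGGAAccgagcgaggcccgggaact
CHORDC1: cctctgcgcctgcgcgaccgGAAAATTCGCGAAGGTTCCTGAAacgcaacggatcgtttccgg
SERPINH1: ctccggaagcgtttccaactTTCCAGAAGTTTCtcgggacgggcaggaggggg
DNAJB6: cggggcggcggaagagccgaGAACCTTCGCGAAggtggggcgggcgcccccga

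The HSPA8 stretches lie at chr11:123062334-123062386 and chr11:123062159-123062211 on the minus strand, and their elements end 218 and 43 bases before the start. The HSP90AB1 stretches lie at chr6:44247758-44247810 and chr6:44247811-44247863 on the plus strand, before the third of its RefSeq starts. The DNAJA1 element, at chr9:33025270-33025294 with its flanks, lies just inside the transcribed part, from base 4 to base 16. The HSP90AA1 stretch lies at chr14:102087100-102087152 and the HSPD1 stretch at chr2:197500048-197500090, both on the minus strand. Each lies before RefSeq start 2 of its gene and within the full span of that gene. The CHORDC1 stretch at chr11:90223067-90223129 on the minus strand holds 5 units in a row, read as 3 overlapping strict elements. The SERPINH1 and DNAJB6 stretches lie at chr11:75562157-75562209 and chr7:157336853-157336905, both on the plus strand.

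The stress-inducible HSP70 genes and 2 further heat-inducible members had only the 2-unit element in these windows, as the next lines show.
HSPA1A: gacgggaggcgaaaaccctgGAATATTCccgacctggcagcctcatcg
HSPA1B: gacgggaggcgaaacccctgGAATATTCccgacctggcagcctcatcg
HSPB1: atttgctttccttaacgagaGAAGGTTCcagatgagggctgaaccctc
DNAJB1: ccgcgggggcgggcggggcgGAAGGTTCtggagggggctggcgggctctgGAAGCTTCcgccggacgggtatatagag
They lie at chr6:31815417-31815464, chr6:31827613-31827660 and chr7:76302471-76302518 on the plus strand and, for DNAJB1, at chr19:14518417-14518494 on the minus strand. The DNAJB1 stretch lies before RefSeq start 2 and within the full span of its gene. A window without a match says only that these letters are not in it.

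**Figure D1:**
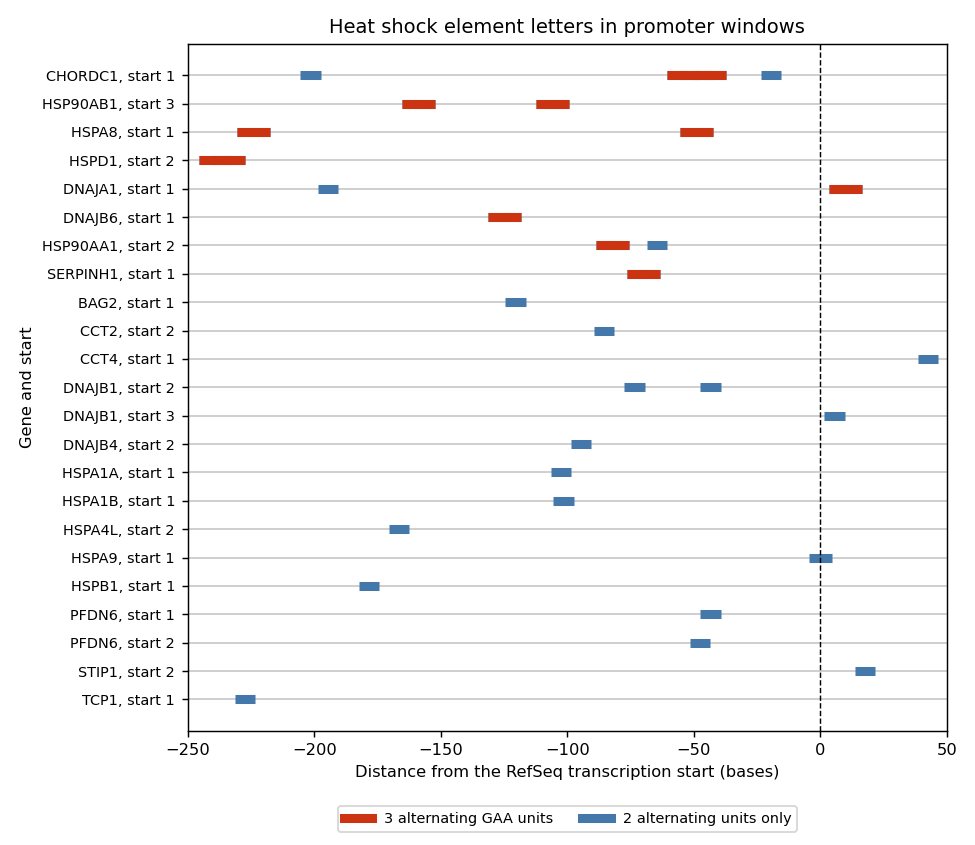
Position of heat shock element letters in the promoter windows of the 21 members that hold any, with the distance from each RefSeq transcription start in bases on the horizontal axis and each gene and start on its own line. Red bars mark elements of 3 alternating units, which 8 members hold, and blue bars mark elements of 2 units.

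The libraries were of similar depth, with expected-count totals from 20906441 to 21972583. The hairpin's target, TPX2, had 55.0 and 111.9 TPM (expression per transcript length, scaled to the same sum in every library) in shNC 1 and shNC 2, and 43.4 and 43.8 TPM in shTPX2 1 and shTPX2 2. By the criteria given below, TPX2 was called lower (limma, unadjusted p = 0.0592). Its log2 fold change was −0.81 with a standard error (SE) of 0.32 (edgeR, unadjusted p = 0.0403, adjusted p = 0.618), and without shNC 2 it was −0.24. The library shNC 1 was therefore close to the shTPX2 libraries in the targeted gene, and over all genes it correlated better with shTPX2 1 (r = 0.983) than with shNC 2 (r = 0.972). Epithelial markers were abundant, with KRT8 at 8228 to 11388 TPM and EPCAM at 201 to 293 TPM, whereas the lung lineage markers NKX2-1, NAPSA and SFTPB did not exceed 1.67 TPM in any library. The summed markers of fibroblasts stayed between 5.9 and 12.4 TPM, with COL1A1 carrying nearly all of it and LUM at 0 in every library. Those of leukocytes were between 135 and 253 TPM, most of it CD68, with PTPRC below 1 TPM. The endothelial markers summed to 19.9 to 36.5 TPM, with VWF and KDR near 0, and 1 of them, CDH5, was higher in shTPX2 (14.4 and 18.1 against 26.7 and 30.5 TPM, log2 fold change 0.94, SE 0.18). The part of these markers in the chaperone results was not tested.

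The chaperone genes were, as a group, somewhat more highly expressed in the shTPX2 libraries. Their TPM summed to 1.41% and 1.47% of all transcripts in shNC 1 and shNC 2 and to 1.56% and 1.71% in shTPX2 1 and shTPX2 2. Of the 50 genes, 41 had a log2 fold change above 0 and 9 below 0, where 48.9% of all tested genes were above 0. The median log2 fold change of the members was 0.24, and that of all tested genes was −0.01. These contrasts, and those of the calls below, are descriptive, since the members were chosen with earlier results of these data known. In bulk RNA, fewer cells that express a gene and less of its RNA per cell cannot be told apart.

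A gene was called by the criteria of the study, a p no larger than 0.1 and a log fold change of 0.3 or more. They were read here as the unadjusted limma p and the log2 scale, in either direction, since the study names neither the adjustment nor the base. By this rule 14 of the 50 members, or 28%, were higher in shTPX2, against a background of 14.2% of all tested genes called in either direction and 6.24% called higher. The number of members called lower was 0, against 7.99% of all tested genes. The 14 were HSPA8, BAG3, DNAJA1, DNAJA3, DNAJB1, HSP90AB1, STIP1, AHSA1, FKBP4, HSPA9, CCT6A, CCT7, PFDN6 and HSPB1. Their fold changes were modest, from 1.25-fold for DNAJB1 to 1.5-fold for HSPA8. No member passed an adjusted p of 0.05 with edgeR, limma or DESeq2, where the smallest adjusted p among the members was 0.579, 0.62 and 0.148. With edgeR 0 of all 14048 tested genes passed it, so this is not particular to the members. At an unadjusted p under 0.05, edgeR gave 4 members, all higher, where 8.03% of all tested genes reached it and 3.13% were higher, and DESeq2 gave 7, where 7.5% of all tested genes reached it. At an adjusted p under 0.05 DESeq2 gave 111 genes, or 0.806% of those with an adjusted p, with 0 members among them.

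The calls depended on single libraries. Without shNC 1, 12 members were called (24%, against 24.3% of all tested genes), 11 higher and HSF2 lower. Without shNC 2, 10 were called, all higher (20%, against 13.1%). Without shTPX2 1, 5 were called (10%, against 10.9%), 4 higher and HSPA13 lower. Without shTPX2 2, 2 were called, both higher (4%, against 7.03%). In 3 of these 4 fits the share of members called in either direction was thus at or below that of all genes, while the share called higher was 22%, 20%, 8% and 4% of the members against 10.7%, 5.98%, 4.73% and 3.42% of all genes. HSPA8 was the only member called in all 4. Scaling mattered as well. With library size alone as the scaling 8 members were called (16%, against 14.4% of all genes), with quantile normalization 7 (14%, against 13.5%), and in limma on log2(TPM + 1) 3 (6%, against 15.1%). The same change of scaling moved the calls over all genes from 876 higher and 1122 lower to 578 and 1445 with library size alone and to 440 and 1684 on log2(TPM + 1). The median of the members stayed above that of all tested genes under each scaling, by 0.25 in the main fit, 0.24 with library size alone, 0.21 on log2(TPM + 1) and 0.17 after quantile normalization. Members above 0 numbered 41, 37, 33 and 39 in the same order. The median of all tested genes was −0.01, −0.08, −0.10 and 0.02.

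**Figure D2:**
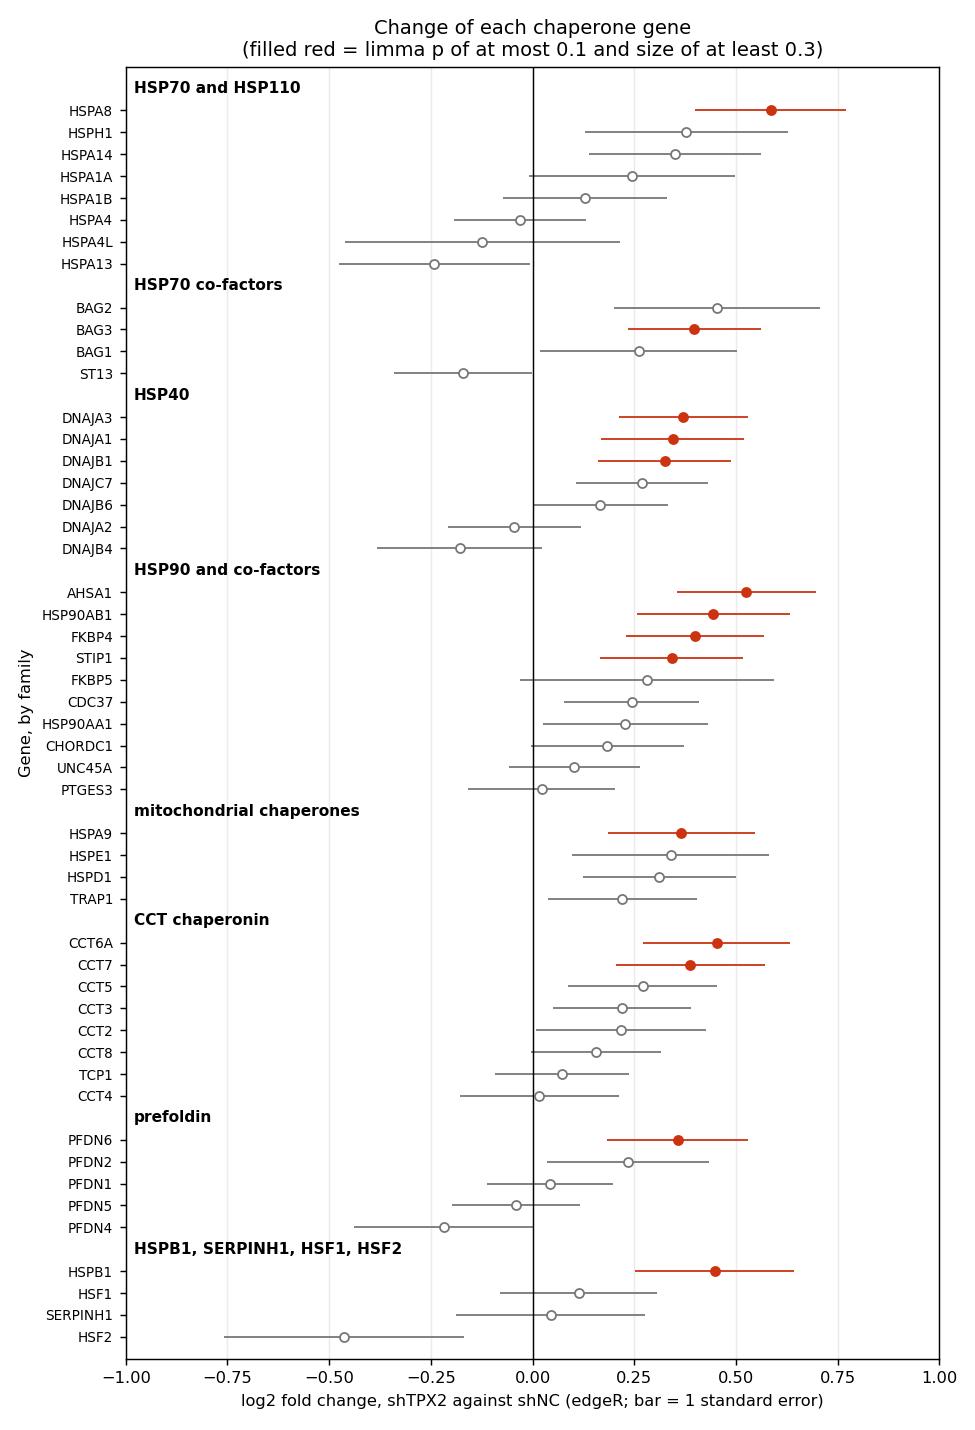
Log2 fold change of each of the 50 genes in shTPX2 against shNC (horizontal axis, edgeR, bars of 1 standard error), grouped by family on the vertical axis. Filled red points are the 14 genes that passed the criteria, all to the right of 0, and open grey points are the other 36.

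In normalized CPM (counts scaled to library size and TMM factor), the 2 shTPX2 libraries lay above both shNC libraries for 25 members and below both for 4, and the groups overlapped for the other 21. Over all tested genes the groups did not overlap in 39.6%, with 19.4% above and 20.2% below. On the TPM scale 20 members lay above and 9 below, against 10.7% and 30.3% of all tested genes. The lowest of the 4 libraries was shNC 1 for 23 members, shNC 2 for 19, shTPX2 2 for 7 and shTPX2 1 for 1. Of the 14048 tested genes these libraries were lowest for 3083, 4229, 3806 and 2930. The highest was shTPX2 2 for 25 members, shTPX2 1 for 14, shNC 2 for 8 and shNC 1 for 3. Of the 14048 tested genes these libraries were highest for 3486, 3057, 4352 and 3153. The expression levels themselves ranged from HSPA4L at 1.92 to 2.88 TPM to HSPB1 at 2728 to 3837 TPM.

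**Figure D3:**
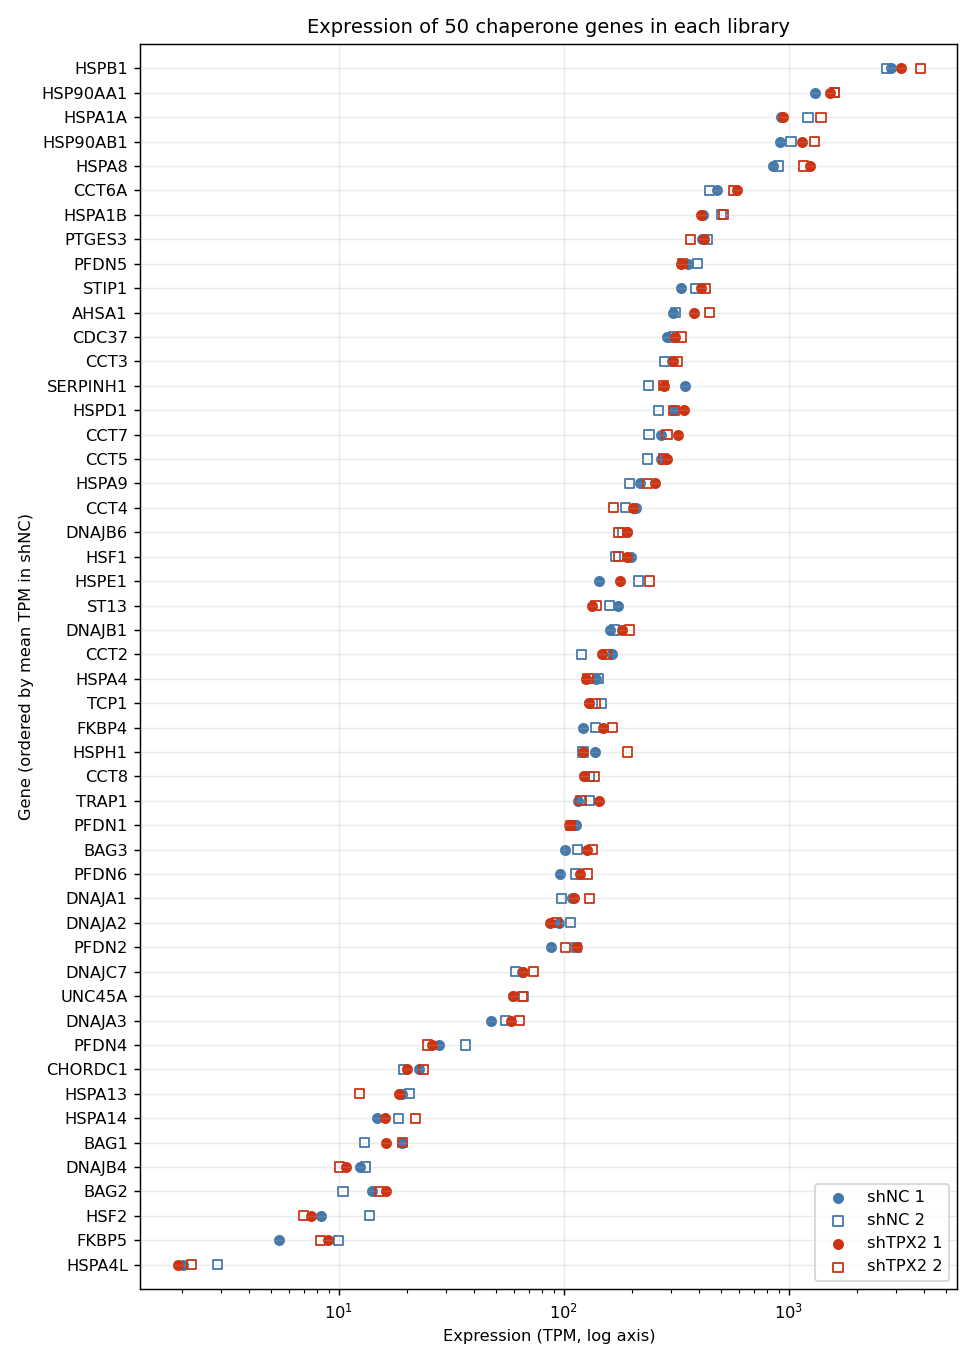
Expression in TPM (log axis) of each of the 50 genes in each library, ordered by the mean of the shNC libraries, with shNC in blue, shTPX2 in red, filled circles for library 1 and open squares for library 2. The genes range from HSPA4L at about 2 TPM to HSPB1 at 2728 TPM and more, and for most genes the 4 points lie close together on this scale.

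HSPA8 encodes HSC70, the constitutive cytosolic HSP70, and of all members it changed the most. It was expressed at 850.45 and 899 TPM in shNC and at 1236 and 1163 TPM in shTPX2, so that both shTPX2 libraries were well above both controls. The log2 fold change was 0.59 with an SE of 0.18 (edgeR, adjusted p = 0.579). HSPA8 was called under all 13 other settings that used an unadjusted p, with a log2 fold change between 0.40 and 0.66. It lies on chromosome 11, minus strand, from 123057489 to 123062462, and it is 1 of 2 members with a pair of separate strict heat shock elements in 1 promoter window, printed above.

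The other HSP70 and HSP110 genes gave no calls. The family thus had 1 of 8 called (12.5%, against 14.2% of all tested genes), with a median log2 fold change of 0.19. The stress-inducible HSPA1A was at 926 and 1216 TPM in shNC and at 941 and 1390 TPM in shTPX2. Its near-copy HSPA1B was at 413 and 501 TPM in shNC and at 406 and 512 TPM in shTPX2. In each gene the libraries numbered 2 were higher than the libraries numbered 1, and the groups overlapped. The log2 fold changes were 0.24 (SE 0.25) and 0.13 (SE 0.20), and both turned just below 0 without shTPX2 2, HSPA1A also after quantile normalization. The coding sequences of this pair are identical at 1922 of 1926 positions, and 67.1% and 70.0% of the 150-base windows of their transcripts occur in another gene, so reads could be divided between them only in part. Summed into 1 row, they gave a log2 fold change of 0.21 (SE 0.24, edgeR adjusted p = 0.857).

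HSPH1, an HSP110 that acts as exchange factor for HSP70, was at 137 and 122 TPM in shNC and at 121 and 192 TPM in shTPX2. The high value came from shTPX2 2 alone, and the log2 fold change of 0.38 (SE 0.25) was 0.03 without that library. HSPA14, a ribosome-associated HSP70 relative, had a log2 fold change of 0.35 (SE 0.21). The HSP110 gene HSPA4 was close to even, at 139 and 143 TPM against 125 and 128 TPM and −0.03 on the log2 scale of the counts. HSPA4L and HSPA13 were below 0 without a call, at −0.12 (SE 0.34) and −0.24 (SE 0.24).

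Of the 4 HSP70 co-factors, BAG3 was called (25%, against 14.2% of all tested genes). BAG3 is an exchange factor that links HSP70 to autophagy and to small heat shock proteins, and it is itself induced by HSF1. It was at 101 and 115 TPM in shNC and at 127 and 134 TPM in shTPX2, with no overlap between the groups. The log2 fold change was 0.40 with an SE of 0.16 (edgeR, adjusted p = 0.621). The call was kept without shNC 2 and lost when any of the other 3 libraries was left out. BAG2, an inhibitor of the ubiquitin ligase CHIP, had the larger log2 fold change of 0.45 (SE 0.25) but did not pass. It was at 14.1 and 10.4 TPM in shNC and at 16.1 and 15.2 TPM in shTPX2. ST13, which stabilizes the HSP70 bound to ADP, was the most abundant of the 4 and the only one below 0, at 173 and 160 TPM in shNC and at 133 and 139 TPM in shTPX2 (log2 fold change −0.17, SE 0.17). BAG1 overlapped between the groups (0.26, SE 0.24).

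Of the 7 HSP40 genes, 3 were called (42.9%, against 14.2% of all tested genes) and the median log2 fold change was 0.27. DNAJA1, the main partner of cytosolic HSC70, was at 109 and 97.6 TPM in shNC and at 111 and 130.2 TPM in shTPX2, so the gap between shNC 1 and shTPX2 1 was small. The log2 fold change of DNAJA1 was 0.34 (SE 0.18). DNAJA3, which works in mitochondria, was at 47.7 and 54.9 TPM in shNC and at 58.4 and 63.3 TPM in shTPX2, or 0.37 (SE 0.16) on the log2 scale. DNAJB1, the heat-inducible HSP40 that assists HSPA1A, was at 161 and 167 TPM in shNC and at 181 and 196 TPM in shTPX2, or 0.32 (SE 0.16). The edgeR adjusted p of the 3 genes was 0.684, 0.634 and 0.682. The DNAJB1 call was lost whenever any 1 library was left out, and those of DNAJA1 and DNAJA3 held without 1 library only, shNC 1 and shNC 2 respectively.

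The other HSP40 genes gave no call. DNAJB6, which suppresses aggregation of polyglutamine proteins, was the most abundant, at 191 and 183 TPM in shNC and at 190.37 and 176 TPM in shTPX2. This gave a log2 fold change of 0.17 (SE 0.17) in counts and of −0.03 on log2(TPM + 1), and 14.6% of its transcript windows occur in another annotated gene. DNAJC7, which binds both HSP70 and HSP90, was at 0.27 (SE 0.16) with no overlap between the groups. DNAJA2 and DNAJB4 had log2 fold changes of −0.04 (SE 0.16) and −0.18 (SE 0.20), and DNAJB4 was at 12.5 and 13.1 TPM in shNC and at 10.8 and 10.1 TPM in shTPX2.

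HSP90 and its co-factors gave 4 calls among 10 genes (40%, against 14.2% of all tested genes). All 10 log2 fold changes were above 0, with a median of 0.26. Of these 10, PTGES3 was below 0 with library size alone, quantile normalization or log2(TPM + 1), and UNC45A was below 0 on log2(TPM + 1). AHSA1, which stimulates the ATPase of HSP90, was at 306 and 313 TPM in shNC and at 378 and 442 TPM in shTPX2. The 2 control libraries lay close together and both shTPX2 libraries were higher. The log2 fold change was 0.53 with an SE of 0.17 (edgeR, adjusted p = 0.579). AHSA1 was called under 12 of these 13 settings and was lost without shTPX2 2, where it stood at 0.44.

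The constitutive HSP90 gene HSP90AB1 was at 918 and 1022 TPM in shNC and at 1144 and 1302 TPM in shTPX2, again without overlap. The change was 0.44 on the log2 scale (SE 0.19, edgeR adjusted p = 0.633), and of the 4 libraries only shNC 2 could be left out without losing the call. The inducible HSP90AA1 had higher levels, at 1310 and 1594 TPM in shNC and at 1525 and 1598 TPM in shTPX2. Its TPM values overlapped between the groups, whereas in normalized CPM both shTPX2 libraries lay above both controls. With a log2 fold change of 0.23 (SE 0.20) HSP90AA1 was not called. The difference between the changes of these 2 paralogs was not tested. Both promoters hold a strict heat shock element.

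STIP1, the adaptor that holds HSP70 and HSP90 together, was at 331 and 386 TPM in shNC and at 406 and 427 TPM in shTPX2, or 0.34 (SE 0.18) on the log2 scale. FKBP4, an immunophilin of steroid receptor complexes, was at 122 and 138 TPM in shNC and at 149.57 and 164 TPM in shTPX2, or 0.40 (SE 0.17). Both were called, and both calls held when shNC 2 was left out and were lost when any of the other 3 libraries was. The kinase adaptor CDC37 had no overlap between groups, at 287 and 307 TPM against 312 and 334 TPM, but its log2 fold change of 0.24 (SE 0.17) did not reach the size required. PTGES3 (p23), CHORDC1, FKBP5 and UNC45A had log2 fold changes of 0.02, 0.18, 0.28 and 0.10, each smaller than its SE, and their groups overlapped. In FKBP5 the low library was shNC 1, at 5.43 TPM, whereas shNC 2 had 9.97 TPM and the shTPX2 libraries had 8.97 and 8.3 TPM.

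All 4 mitochondrial chaperones had a log2 fold change above 0, with a median of 0.33. Of the 4, 1 was called (25%, against 14.2% of all tested genes). HSPA9 (mortalin), the HSP70 of the mitochondrial matrix, was at 218 and 196 TPM in shNC and at 254 and 236 TPM in shTPX2. This was a log2 fold change of 0.37 (SE 0.18, edgeR adjusted p = 0.678), and the call was kept only without shNC 1. HSPD1 and HSPE1, the HSP60 and HSP10 that form the mitochondrial chaperonin, are neighbours on chromosome 2, at 197486584 to 197500274 and 197500379 to 197503449. HSPD1 was at 307 and 264 TPM in shNC and at 342 and 309 TPM in shTPX2, or 0.31 (SE 0.19). HSPE1 was at 144 and 215 TPM in shNC and at 177 and 239 TPM in shTPX2, or 0.34 (SE 0.24). The libraries numbered 2 were the lower ones for HSPD1 and the higher ones for HSPE1, in both groups. TRAP1, the HSP90 of mitochondria, had a log2 fold change of 0.22 (SE 0.18).

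The 8 CCT subunits all had a log2 fold change above 0, with a median of 0.22. Among them 2 were called (25%, against 14.2% of all tested genes). Of the 8, CCT4 was below 0 with library size alone, quantile normalization or log2(TPM + 1), and TCP1 was below 0 on log2(TPM + 1). CCT6A was at 478 and 442 TPM in shNC and at 587 and 569 TPM in shTPX2, and CCT7 was at 269 and 239 TPM in shNC and at 320.28 and 287 TPM in shTPX2. Both subunits were higher in each shTPX2 library than in each control. Their log2 fold changes were 0.45 (SE 0.18) and 0.39 (SE 0.18), with edgeR adjusted p-values of 0.619 and 0.659. CCT6A was called without shNC 1 and lost without any of the other 3 libraries, and CCT7 was lost without shNC 2 and without shTPX2 1.

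The assembled ring holds equal numbers of each subunit, but the transcripts were unequal. CCT6A was the highest subunit in every library, at 3.69 to 4.76 times the TPM of the lowest one, which was CCT2 in shNC 2 and CCT8 in the other 3 libraries. CCT5 and CCT3 had log2 fold changes of 0.27 (SE 0.18) and 0.22 (SE 0.17), with no overlap between the groups. CCT2 spread most within the controls, at 164 and 120 TPM, against 148 and 155 TPM in shTPX2, and its log2 fold change of 0.22 (SE 0.21) was −0.01 without shNC 2. CCT8, TCP1 and CCT4 had log2 fold changes of 0.16, 0.07 and 0.02.

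Prefoldin, which delivers unfolded actin and tubulin to CCT, had 1 call among the 5 subunits that are members (20%, against 14.2% of all tested genes). Their median log2 fold change was 0.04. PFDN6 was at 95.9 and 113 TPM in shNC and at 118 and 127 TPM in shTPX2, or 0.36 (SE 0.17, edgeR adjusted p = 0.672), and was called only as long as shNC 1 and both shTPX2 libraries were in. PFDN5, which is also known as a partner of MYC, was the highest subunit in every library. It was at 355 and 392 TPM in shNC and at 330.17 and 338 TPM in shTPX2, or −0.04 (SE 0.16) on the log2 scale of the counts. PFDN4 was the lowest in every library, at 27.8 and 36.6 TPM in shNC and at 26.04 and 24.7 TPM in shTPX2 (−0.22, SE 0.22). PFDN1 and PFDN2 had log2 fold changes of 0.04 and 0.23.

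HSPB1 (HSP27), a small heat shock protein that holds unfolded proteins and binds actin, was the most abundant member. It was at 2851 and 2728 TPM in shNC and at 3159 and 3837 TPM in shTPX2, and the groups did not overlap. The difference was 0.45 on the log2 scale (SE 0.20, edgeR adjusted p = 0.646), and the call was lost without shNC 2 or without shTPX2 2. SERPINH1 (HSP47), the collagen chaperone of the endoplasmic reticulum, was at 345 and 237 TPM in shNC, which enclosed the 277 and 278 TPM of shTPX2, and its log2 fold change was 0.04 (SE 0.23).

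Neither of the 2 heat shock factors among the members was called. HSF1 was at 198 and 169.85 TPM in shNC and at 190.33 and 176 TPM in shTPX2, with a log2 fold change of 0.11 (SE 0.19). Its activity is set mainly by trimerization, phosphorylation and chaperone binding, which transcript levels do not show. HSF2 was low, at 8.35 and 13.7 TPM in shNC and at 7.55 and 6.96 TPM in shTPX2. With −0.46 (SE 0.30) it had the most negative log2 fold change of the members, which was not called, was −0.10 without shNC 2, and was −0.75 and called lower without shNC 1.

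The medians of each family by library show where the libraries of a group differed. For the HSP70 co-factors, HSP40, HSP90 with its co-factors, the mitochondrial chaperones and the CCT chaperonin, both shTPX2 libraries lay above both shNC libraries. The deviation of the HSP90 family from the mean of the 4 libraries was −0.25 and −0.09 in shNC and 0.14 and 0.17 in shTPX2. For the HSP70 and HSP110 family the 2 groups overlapped, with −0.17 and 0.03 in shNC and −0.05 and 0.22 in shTPX2. Prefoldin overlapped as well, and the medians of all tested genes were between −0.00105 and 0.0101.

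**Figure D4:**
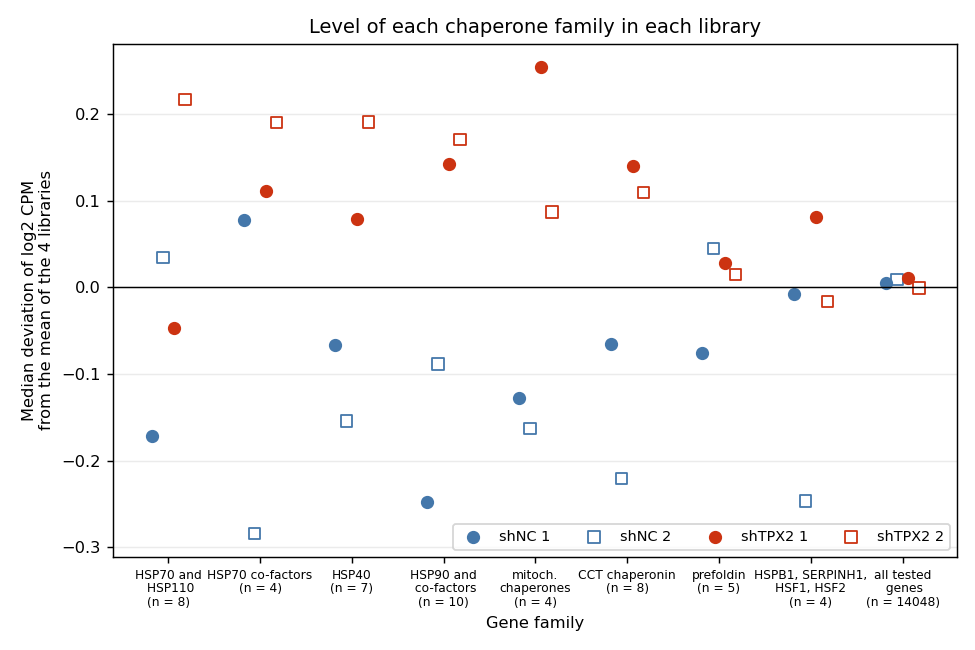
Median deviation of log2 CPM from the mean of the 4 libraries (vertical axis) for each family and for all tested genes, with shNC in blue and shTPX2 in red. In the HSP70 co-factor, HSP40, HSP90, mitochondrial and CCT families both red points lie above both blue points, whereas in the HSP70 and HSP110 family, in prefoldin and in the last group of members they do not.

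**Figure D5:**
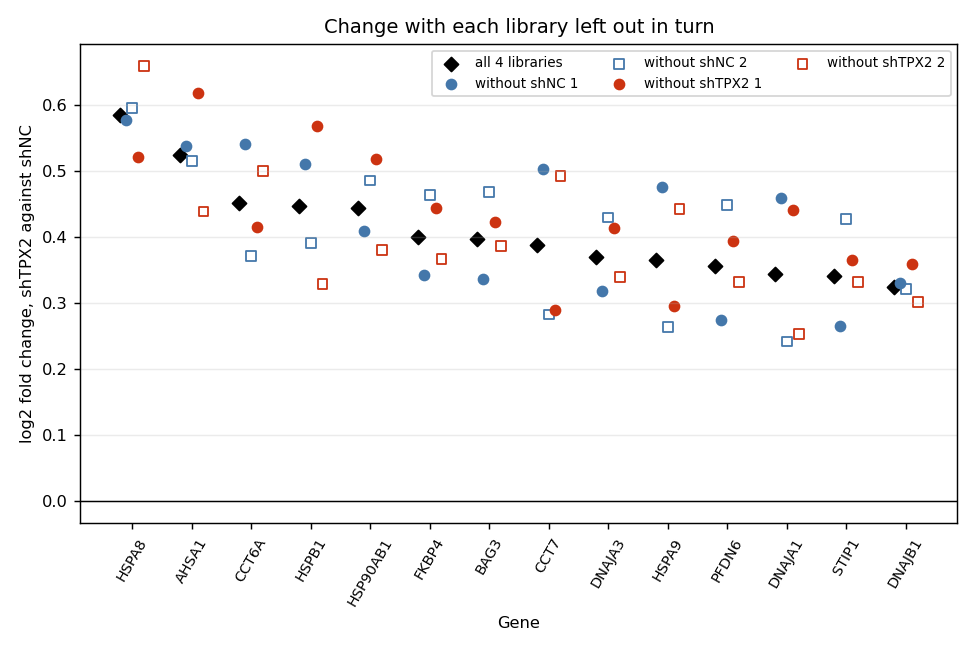
Log2 fold change of the 14 called genes (vertical axis) with all 4 libraries, as black diamonds, and with each library left out in turn, as coloured points. All points lie above 0, which the choice of genes called on these same libraries largely set in advance. HSPA8 stays between 0.52 and 0.66.

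The promoter letters were compared with the calls among the members that had a window. A strict element was present in 3 of 12 called members (HSPA8, HSP90AB1 and DNAJA1), or 25%, and in 5 of 32 others, or 15.6%. The 2-unit element was present in 8 of 12 called members and in 13 of 32 others. The members with a strict element thus ranged from the most changed gene, HSPA8, to SERPINH1 at 0.04, and 4 of the 12 called members with a window, AHSA1, BAG3, DNAJA3 and CCT7, had neither element in it. No test was made of these shares.

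Genes of the same pathways that are not among the 50 members were read from lists written from general knowledge. Of 14 other HSP90 co-factors, 5 were called, all higher, and the median log2 fold change of the 14 was 0.25. This was 35.7%, against 14.2% of all tested genes called in either direction and 6.24% called higher. NUDC, a co-chaperone that is also needed for nuclear movement and mitosis, was at 112 and 123 TPM in shNC and at 139.53 and 171 TPM in shTPX2 (0.54, SE 0.18). RUVBL1 and RUVBL2, the ATPases of the R2TP complex that works with HSP90, were at 0.36 (SE 0.16) and 0.40 (SE 0.16), PPID at 0.38 (SE 0.18) and SGTA at 0.32 (SE 0.16).

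Of 27 other tested genes of the HSP70 and HSP40 systems, with the remaining small heat shock proteins, 4 were called higher and 3 lower, around a median of 0.07. The share called was 25.9%, against 14.2% of all tested genes. HSPA2, an HSP70 best known from the testis, was at 48.3 and 47.9 TPM in shNC and at 62.6 and 182 TPM in shTPX2. The log2 fold change of HSPA2, 1.46 (SE 0.45), was the largest increase of the list and was 0.53 without shTPX2 2, where it was still called. DNAJC9, an HSP40 that is also a histone chaperone, was at 31.2 and 30.6 TPM in shNC and at 43.4 and 40.9 TPM in shTPX2 (0.57, SE 0.16), and it stayed called without each library in turn. HSPBP1 and DNAJB12 were at 0.44 (SE 0.20) and 0.38 (SE 0.20). DNAJC21 was lower (−0.32, SE 0.16), and so were 2 small heat shock proteins at low levels. CRYAB was at 4.01 and 8.49 TPM in shNC and at 2.07 and 2.06 TPM in shTPX2 (−1.48, SE 0.50), and without shNC 2 it was at −0.87 and not called. HSPB7 did not exceed 0.47 TPM, with 13 and 11 counts in shNC, 2 and 3 counts in shTPX2, and was called lower (−2.14, SE 0.62).

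The further lists are likewise set against the 14.2% of all tested genes that were called. Of 12 other mitochondrial proteostasis genes 2 were called (16.7%), the proteases LONP1 (0.37, SE 0.18) and CLPP (0.37, SE 0.16), both higher. Of 14 chaperones of the endoplasmic reticulum 0 were called, and their median was 0.05, with SDF2L1 the largest at 0.42 (SE 0.30). A list of 10 other genes held helpers and further subunits of prefoldin and CCT, such as VBP1 and CCT6B. It also held NACA and BTF3, which belong to neither complex, and 0 of the 10 were called. In this list 9 were above 0 with a median of 0.17, and CCT6B was the largest in size at −0.41 (SE 0.56). By edgeR, 0 genes of these latter 2 lists had an unadjusted p under 0.05, where 8.03% of all tested genes did.

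A list held 10 heat-inducible genes outside the members, of which 9 were tested. It had 1 call, CRYAB, which was lower (11.1%, against 14.2% of all tested genes). Its other 8 tested genes had a log2 fold change above 0, from 0.01 for ZFAND2A to 0.37 for CACYBP, with none called. HSPA6, an HSP70 gene expressed mainly after severe heat shock, did not exceed 1.15 TPM in any library and was not tested. The immediate-early genes, which respond to handling and serum, differed between the libraries of a group. Their summed level was 1485 and 628 TPM in shNC 1 and shNC 2 and 1305 and 706 TPM in shTPX2 1 and shTPX2 2. The libraries numbered 1 were thus about level with each other, as were those numbered 2. Of the 8 genes 1 was called, FOSB (1.00, SE 0.36), or 12.5%, against 14.2% of all tested genes. The part of the difference between the libraries numbered 1 and 2 in the chaperone results was not tested.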

How the data were processed

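RNA from 4 PC9 libraries was measured, 2 carrying shNC and 2 carrying shTPX2, grouped by their labels. The authors' text names SOAPnuke, HISAT2/Bowtie2 and RSEM or StringTie, whereas the submitters' processing notes name HISAT2, featureCounts, DESeq2 and GRCh38, and which of these made the table is not given in the sources used here, nor is the annotation or strand setting. For each library the table deposited by the authors holds expected counts of genes, without any scaling for depth, and 42.2% to 44.6% of them were not whole. The authors also deposited FPKM values, scaled by length and depth and not used here, and TPM values, scaled to 1 sum per library and used for levels. How reads of near-identical genes such as HSPA1A and HSPA1B were assigned in the authors' quantification is therefore not known.

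Here these counts were rounded to integers before filtering with filterByExpr (14048 genes remained). Calls were made with limma 3.58.1 after voom with TMM factors (the study's limits of 0.1 for p and 0.3 for the log fold change, read as unadjusted and log2). Log2 fold changes, SE and p-values came from the quasi-likelihood test of edgeR 4.0.16 in R 4.3.3, with Benjamini-Hochberg adjustment over all tested genes. The SE was taken as the size of the log2 fold change divided by the root of the F statistic. An exact two-sided permutation test of 2 against 2 libraries cannot go below p = 0.333. The common dispersion estimated by edgeR was 0.0485. The scripts were tested on simulated counts. Alternatives were DESeq2 1.42.0, RLE factors, no factors (library size), quantile normalization, other filters, limma on log2(TPM + 1), a replicate block, and leaving out each library, where the lone library was assumed to vary like the other group.

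Members and lists were chosen with earlier results of these data known. Named genes were the called members, the most abundant and the most changed gene of each family, the heat-inducible members, HSF1, HSF2 and TPX2, and in the other lists the called and the most changed genes; the other members are given by their log2 fold change. Promoter sequences and gene positions came from RefSeq (GRCh38.p14), and shared 150-base windows from GENCODE v29 transcripts.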

Additional observations from a re-analysis of the deposited data

How the results depend on the processing

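The count of called members was 14 in the main fit. It was 8 with library size only, 7 after quantile normalization, 3 on log2(TPM + 1) and 0 with an adjusted p in the criteria, and it ranged from 2 to 12 when 1 library was left out (5 without shTPX2 1 and 2 without shTPX2 2). With other normalization factors, edgeR or DESeq2 p-values, no filter, or a minimum of 10 counts per library it was 12 to 15. Over all genes, 1998 were called in the main fit, 1 with an adjusted p, and 1018 to 3515 without 1 library, with the lowest count without shTPX2 2 and the highest without shNC 1. With an adjusted p every family had 0 calls. The cause of these differences was not tested. The shares of all tested genes called, to be read beside the family counts below, were 14.4% with library size only and 13.5% after quantile normalization. They were 12% with DESeq2, 14.2% without a filter and 15.1% on log2(TPM + 1). Those without 1 library are given above. The median of the members, 0.24 in the main fit, was 0.17 with library size only, 0.18 after quantile normalization, 0.26 without a filter, 0.11 on log2(TPM + 1), and 0.21 to 0.26 without 1 library.

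By family, the HSP70 and HSP110 genes had 2 calls when HSPA9 was counted with them and 1 to 3 without 1 library. The HSP70 co-factors had 2 calls without a filter, 0 on log2(TPM + 1), and 0 to 2 without 1 library. HSP40 had 0 calls with library size only, 1 after quantile normalization, 0 on log2(TPM + 1), and 0 to 1 without 1 library. HSP90 had 2 calls after quantile normalization, 1 on log2(TPM + 1), and 0 to 5 without 1 library. The mitochondrial chaperones had 0 calls with library size only, quantile normalization or log2(TPM + 1), 2 when DNAJA3 was counted with them, and 0 to 2 without 1 library. CCT had 1 call on log2(TPM + 1) and 0 to 3 without 1 library. Prefoldin had 0 calls with library size only, quantile normalization, DESeq2 or log2(TPM + 1), and 0 to 1 without 1 library. The group of HSPB1, SERPINH1, HSF1 and HSF2 had 0 calls after quantile normalization or on log2(TPM + 1), and 0 to 2 without 1 library.

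The family medians on log2(TPM + 1) were 0.14 for HSP40, 0.16 for HSP90, 0.21 for the mitochondrial chaperones, 0.11 for CCT and −0.0805 for prefoldin, which was −0.0269 with library size only. Without 1 library the medians ranged from 0.00388 to 0.38 for HSP70 and HSP110, 0.11 to 0.47 for the HSP70 co-factors, 0.20 to 0.34 for HSP40, 0.25 to 0.39 for HSP90, 0.26 to 0.39 for the mitochondrial chaperones, 0.145 to 0.355 for CCT, 0.00693 to 0.0889 for prefoldin and −0.0737 to 0.335 for the group with HSPB1.

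TPX2 ranged from −1.21 to −0.24 without 1 library (−0.82 without shTPX2 1, −0.78 without shTPX2 2). The sign turned for some members, several of them not near 0 in the main fit. There FKBP5 was at 0.28, BAG1 at 0.26, HSPA13 at −0.24 and CCT2 at 0.22. HSPA1A was −0.00334 after quantile normalization, and ranged from −0.0334 to 0.489 without 1 library, and HSPA1B from −0.0189 to 0.276. After quantile normalization HSPA4L was 0.0496, PTGES3 −0.0743 and CCT4 −0.0581. With library size only PTGES3 was −0.0505, CCT4 −0.0532, PFDN1 −0.0269 and SERPINH1 −0.0181. On log2(TPM + 1) DNAJB6 was −0.0312, PTGES3 −0.102, UNC45A −0.01, TCP1 −0.0492, CCT4 −0.113, PFDN1 −0.0805, SERPINH1 −0.0434 and HSF1 −0.006. Without 1 library the range was −0.31 to 0.10 for HSPA4L, −0.572 to 0.039 for HSPA13, −0.014 to 0.603 for BAG1, −0.0999 to 0.0183 for DNAJA2, −0.10 to 0.15 for PTGES3, −0.065 to 0.75 for FKBP5, −0.0126 to 0.492 for CCT2, −0.15 to 0.18 for CCT4, −0.00147 to 0.0908 for PFDN1, −0.0825 to 0.00693 for PFDN5, −0.23 to 0.38 for SERPINH1 and −0.0458 to 0.293 for HSF1. Beside HSPA1A and HSPA1B, 15 of the 65 other named genes apart from TPX2 changed sign under at least 1 alternative, and 0 of the 14 called members did. The 14 were called on these same libraries, with both shTPX2 libraries above both shNC libraries in normalized CPM. Leaving out 1 library could thus hardly turn their sign, and the 0 shows no added stability.

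The libraries share replicate numbers, but the labels name no shared batch or day for a number, and with 2 pairs the numbers were not taken to pair the libraries (correlation of same-numbered deviations 0.182). With the replicate number as a replicate block 17 members and 17.4% of all genes were called, the HSP70 co-factors had 2 calls and the mitochondrial chaperones 3. No alternative reduced the depth.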

Other observations

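The group means that the authors deposited beside the libraries were not the means of the 2 libraries of each group. Within 0.01 TPM, they equalled that mean for 7.65% of the genes in shNC and for 6.31% in shTPX2. Taken 3 times, the authors' shNC mean was a whole number of hundredths of a TPM for 100% of the genes, and taken 4 times the authors' shTPX2 mean was so as well, as means of 3 and 4 values would be. The values behind them were not analysed here, and the means carry no SD. Whether they include the 4 libraries is not known, so they cannot be taken as independent of those libraries. NKX2-1 had an authors' mean of 22 TPM in shNC and 36.1 TPM in shTPX2 but did not exceed 1.55 TPM in any of the 4 libraries, and HSPB6 had 21.5 and 35.3 TPM but did not exceed 1.19 TPM. The means thus hold values unlike those of the 4 libraries, and the values that follow are given as the authors' means only, not as a comparison of the conditions.

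In the authors' means 36 of the 50 chaperone genes were higher in shTPX2 and 14 were lower, where 40.3% of the tested genes were higher. The median log2 ratio of the means plus 1 TPM was 0.12 for the members and −0.06 for the tested genes. All 8 CCT subunits, all 4 mitochondrial chaperones and 9 of the 10 genes of the HSP90 family were higher in the shTPX2 mean, whereas 4 of the 8 HSP70 and HSP110 genes were. HSPD1 had an authors' mean of 370 TPM in shNC and 473 TPM in shTPX2, and HSPE1 had 241 and 320.2 TPM. HSPB1 had 3034 and 4276 TPM, and DNAJA1 had 123 and 173 TPM. HSPA8 had 1105 and 1239 TPM. HSPA1A had 855 and 812 TPM and HSPA1B had 367 and 317 TPM. TPX2 itself had 138 and 64.5 TPM.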
